A study of Mus musculus with 36 samples.

Results

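The ClC family of chloride channels and exchangers was followed in the hearts of a mouse model of myotonic dystrophy type 1 (DM1), with Clcn1, the chloride channel of skeletal muscle, as the leading gene. The 7 members, Clcn1 to Clcn7, were taken by symbol out of the 55291 symbols of the deposited table, and all 7 passed the filter on low counts that left 19231 genes for testing. Clcn1 was selected on its measured RNA levels with and without doxycycline (dox), so its values in the +dox and –dox cohorts are given as a description with no test. Clcn2 to Clcn7 came with it as its family and were not picked for their values.

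The animals were CUG960 mice, bitransgenic TREDT960I (Hom)/MHCrtTA (Hem), in which the cardiomyocyte-specific α-MHC promoter drives the transactivator and dox feeding switches on an RNA with expanded CUG repeats (CUGexp RNA). The +dox cohort received dox from postnatal day 1 until tissue collection at 21 weeks of age, the –dox cohort carried both transgenes and never received it, and the +/–dox cohort was taken off dox at 9 weeks. In 3 further cohorts dox feeding went on and AAV9 was injected at 9 weeks, coding for 3XFLAG-MBNL1 (cohort MBNL1), 3XMYC-MBNL2 (MBNL2) or both (MBNL1+MBNL2), human cDNAs under the heart-specific TNNT2 promoter, so that all but the –dox cohort had been exposed to CUGexp RNA and the 3 injected cohorts still made it. RNA from the left ventricle and from the atria was sequenced with 3 libraries per cohort and tissue, 36 in all and each a biological replicate, at 55031987 to 97091184 counted fragments each. No cohort injected with an empty or unrelated vector was analysed here, so an effect of AAV9 itself and one of MBNL cannot be told apart in these comparisons. Nor was a dox-fed cohort without the repeat transgene, so effects of dox itself and of CUGexp RNA cannot be told apart either.

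ClC proteins are dimers in which each subunit has its own pore. Clcn1 and Clcn2 code for chloride channels of the plasma membrane, whereas Clcn3 to Clcn7 code for chloride-proton exchangers of endosomes and lysosomes. The Clcn1 channel carries most of the resting chloride conductance of skeletal muscle fibres, and its loss delays repolarization and causes myotonia. In DM1 the CUGexp RNA binds MBNL splicing factors, and the Clcn1 transcript of skeletal muscle is one of the classical transcripts that are then misspliced. The counts analysed here were summed per gene and hold no information on splicing.

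Clcn1 (ENSMUSG00000029862.15) lies on the plus strand of chromosome 6 at 42286685 to 42315756 in GRCm38. Its promoter window, 250 bases before to 50 bases after the RefSeq start, is shown because Clcn1 is the member with by far the widest range of RNA levels. It spans chr6:42286435-42286734 on the plus strand and is written 5′ to 3′, and the capitals mark a match to the MEF2 consensus, the binding sequence of a family of muscle transcription factors.
Clcn1 promoter: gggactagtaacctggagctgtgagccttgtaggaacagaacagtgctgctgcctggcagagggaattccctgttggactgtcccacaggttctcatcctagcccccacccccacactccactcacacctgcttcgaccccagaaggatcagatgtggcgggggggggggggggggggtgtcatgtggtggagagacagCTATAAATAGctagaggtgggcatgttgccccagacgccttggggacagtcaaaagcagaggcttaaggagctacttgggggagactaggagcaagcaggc

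The match reads on both strands, covers bases -51 to -42 from the start and overlaps a TATA box (letters TATAAA or TATATA) at -50 to -45. On either strand, 3.19% of the 32851 promoter windows of the same length held a MEF2 match and 17.1% held a TATA box. The window also held 3 E-boxes (CANNTG, found in 72.3% of all windows) and no CArG box (1.63% of all windows). All 7 members matched an entry, 11 windows in all, and the only other one with a MEF2 match was 1 of the windows of Clcn3. The Clcn1 window contained 3 CG pairs, against a median of 7 over all windows and 38 in the CG-richest window of the family, that of Clcn3. These matches describe the sequence and say nothing about which factors bind there.

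RNA levels of Clcn1 ran from 0.06 TPM (TPM being the share of all transcripts after correction for transcript length) in the ventricle of a +dox animal to 8.11 TPM in the atria of a –dox animal. In the left ventricle Clcn1 stood at 0.09, 0.06 and 0.06 TPM in the +dox cohort, on 24, 18 and 11 counted fragments. It stood at 0.85, 0.82 and 1.24 TPM in the –dox cohort and at 0.64, 0.86 and 0.8 TPM in the +/–dox cohort. The +dox libraries thus lay below all libraries of both cohorts, and the latter overlapped each other. The MBNL1 cohort had 0.25, 0.29 and 0.27 TPM, the MBNL2 cohort 0.22, 0.22 and 0.41 TPM and the MBNL1+MBNL2 cohort 0.27, 0.19 and 0.16 TPM. All 9 ventricular libraries of the injected animals lay above the +dox libraries and below the +/–dox libraries, and the 3 injected cohorts overlapped one another.

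In the atria Clcn1 was higher in every cohort and again lowest in +dox and highest in –dox by mean, while the order of the injected cohorts differed. The +dox libraries held 1.43, 1.23 and 1.23 TPM, the –dox libraries 7.38, 6.99 and 8.11 TPM and the +/–dox libraries 6.53, 6.28 and 7.74 TPM. Removal of dox at 9 weeks therefore went with atrial levels that overlapped those of animals never given dox. The MBNL1 cohort had 2.18, 1.94 and 3.29 TPM, the MBNL2 cohort 1.22, 1.54 and 2.68 TPM and the MBNL1+MBNL2 cohort 2.08, 1.88 and 1.84 TPM. The MBNL2 cohort overlapped the +dox cohort, the other injected cohorts lay above it, and all 3 lay below the +/–dox libraries.

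**Figure D1:**
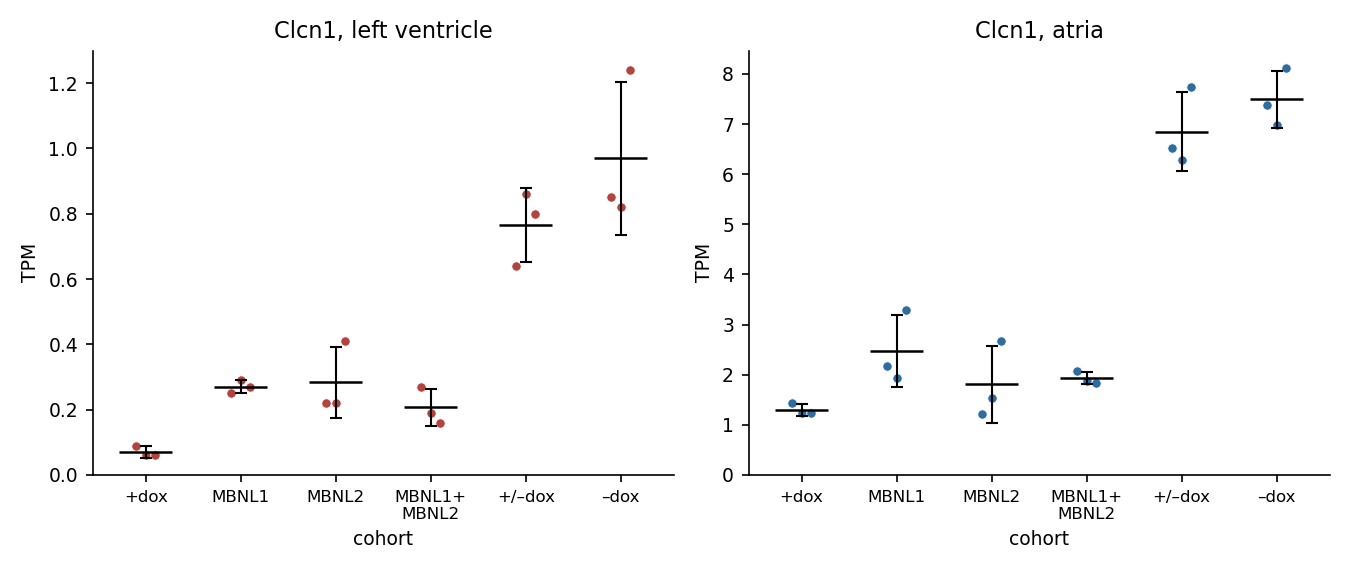
Clcn1 RNA level in TPM for each library of the left ventricle and the atria, by cohort, with the mean (horizontal line) and SD (error bar) of 3 libraries. The axes of the panels differ: ventricular levels reach 1.24 TPM and atrial levels 8.11 TPM, and in both tissues the injected cohorts lie below the +/–dox and –dox cohorts.

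Against +dox, the fitted log2 fold change of Clcn1 in the ventricle was 3.73 ± 0.27 (SE) for –dox, 3.38 ± 0.27 for +/–dox, 1.84 ± 0.29 for MBNL1, 1.77 ± 0.29 for MBNL2 and 1.41 ± 0.30 for MBNL1+MBNL2. In the atria these values were 2.55 ± 0.22, 2.45 ± 0.22, 0.89 ± 0.21, 0.48 ± 0.22 and 0.51 ± 0.22 in the same order. All of these differences use the +dox libraries on which Clcn1 was selected, and so they describe the choice and are not tested. The ratio of mean TPM to +dox was 13.9 for –dox and 11.0 for +/–dox in the ventricle, and 5.78 and 5.28 in the atria. In bulk tissue, fewer cells of a type and less RNA per cell cannot be told apart.

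On a linear TPM scale set to 0% at the mean of +dox and to 100% at that of +/–dox, the ventricular libraries of the MBNL1 cohort averaged 28.7% ± 2.87 (SD, n = 3), those of the MBNL2 cohort 30.6% ± 15.8 and those of the MBNL1+MBNL2 cohort 19.6% ± 8.16. The atrial averages were 21.1% ± 12.97, 9.30% ± 13.8 and 11.5% ± 2.32. On a log2 scale of CPM (counts scaled to library size) the ventricular positions were 53.9%, 50.3% and 40.5% and the atrial ones 35.7%, 17.6% and 21.2%. The position therefore depends on the scale, while on both scales all injected cohorts averaged below the +/–dox cohort.

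The comparison of the injected cohorts with +/–dox uses no +dox or –dox library, although Clcn1 was chosen with earlier results of these data known. It asks how MBNL supply with the repeats still present compares with shutting the repeats off by dox removal. In edgeR's quasi-likelihood test, Clcn1 was lower than in +/–dox in all 6 comparisons, at an adjusted p below 0.05 and a change of at least 1.5-fold, the rule for a call used throughout. In the ventricle the log2 fold change was -1.54 ± 0.24 (SE) for MBNL1 (adjusted p = 0.00026), -1.61 ± 0.24 for MBNL2 (adjusted p = 8.46e-05) and -1.97 ± 0.25 for MBNL1+MBNL2 (adjusted p = 1.43e-05). Of all genes tested, 0.868%, 1.57% and 0.530% were called in these comparisons. In the atria it was -1.55 ± 0.21 for MBNL1 (adjusted p = 2.66e-05), -1.96 ± 0.22 for MBNL2 (adjusted p = 3.12e-07) and -1.93 ± 0.22 for MBNL1+MBNL2 (adjusted p = 7.13e-07), with 1.21%, 3.24% and 1.71% of all genes called. Clcn1 was thus called in each of these comparisons, with a 2.91- to 3.91-fold lower level in the injected cohorts. The injected cohorts stayed on dox and +/–dox did not, which is the condition by which Clcn1 was chosen. A lower level was therefore likely from the choice, and the shares of all genes do not measure how unusual Clcn1 is. In the ventricle, limma on log2(TPM + 1) gave -0.47, -0.46 and -0.55 for the 3 cohorts, all under the fold minimum, with adjusted p of 0.0521, 0.0251 and 0.0286. All these levels are under 1 TPM, where a pseudocount of 1 shrinks a fold change.

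Between the injected cohorts no difference in Clcn1 passed the test. In the ventricle MBNL1 and MBNL2 differed by a log2 fold change of 0.07 (95% interval -0.43 to 0.56, adjusted p = 0.937 in edgeR), and MBNL1+MBNL2 differed from MBNL1 by -0.43 (-0.94 to 0.09, adjusted p = 0.648) and from MBNL2 by -0.36 (-0.88 to 0.16, adjusted p = 0.767). In the atria the corresponding edgeR values were 0.41 (-0.01 to 0.83, adjusted p = 0.892), -0.38 (-0.79 to 0.04, adjusted p = 1) and 0.03 (-0.39 to 0.45, adjusted p = 0.998). These intervals are wide and do not show that the vectors act alike. Unadjusted p was between 0.064 and 0.881 in these 6 comparisons.

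Libraries fell into 2 sets by the leading digits of their names, with replicates 1 and 2 of 5 cohorts in one set and replicate 3 of these cohorts with all MBNL1+MBNL2 libraries in the other. In the atria, the highest Clcn1 level of the MBNL1, MBNL2, +/–dox and –dox cohorts was that of the second set, 3.29, 2.68, 7.74 and 8.11 TPM, whereas in +dox the second set had 1.23 TPM against a mean of 1.33 TPM. With the set as a term in the fit, Clcn1 remained lower than in +/–dox, by log2 fold changes between -1.54 and -2.14 over the 6 comparisons. Sex moved with these sets: Xist, transcribed from the inactive X chromosome of females, exceeded the Y-linked Ddx3y in 10 libraries, replicate 3 of both tissues in these 5 cohorts, and in no MBNL1+MBNL2 library. In those 5 cohorts sex and set therefore cannot be told apart, and the MBNL1+MBNL2 animals were all male. With sex as a term, a fit added after the data were seen, the same 6 log2 fold changes lay between -1.54 and -1.99, all called in edgeR. One library, replicate 1 of the ventricular MBNL1 cohort, had fewer genes above 0 (16885) than any other (20578 or more). Without it, the ventricular log2 fold change of MBNL1 against +/–dox was -1.53 (adjusted p = 0.00286 in edgeR).

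Clcn1 was lower in the left ventricle than in the atria in every cohort. Both chambers were taken from the same animals, but the labels do not tie replicate numbers to animals, and the fit treats the libraries as independent. The log2 fold change between the chambers was -2.67 ± 0.23 (SE) in +/–dox (adjusted p = 2.24e-11 in edgeR), -2.66 ± 0.24 in MBNL1 (7.91e-11), -2.31 ± 0.24 in MBNL2 (1.82e-09) and -2.71 ± 0.25 in MBNL1+MBNL2 (1.27e-10). The share of all genes called between the chambers was 24.2%, 25.3%, 21.7% and 24.1% in these cohorts. In the cohorts used for its selection, the same difference was -3.60 ± 0.27 in +dox and -2.42 ± 0.22 in –dox, given without a test. The difference between chambers in the change from +/–dox to each injected cohort was 0.01 for MBNL1, 0.35 for MBNL2 and -0.04 for MBNL1+MBNL2, with adjusted p of 1, 0.883 and 0.994 in edgeR. With cohort and replicate number as a block, which pairs same-numbered chambers, the 4 tested chamber differences were -2.31 to -2.72 and all stayed called.

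Ordered by mean TPM, all 6 ventricular cohorts ranked below all 6 atrial ones. From low to high the means were 0.07, 0.207, 0.27, 0.283, 0.767 and 0.97 TPM in the ventricle, for +dox, MBNL1+MBNL2, MBNL1, MBNL2, +/–dox and –dox. The atrial means were 1.297, 1.81, 1.93, 2.47, 6.85 and 7.49 TPM, for +dox, MBNL2, MBNL1+MBNL2, MBNL1, +/–dox and –dox. Only 3 steps between neighbours in this order separated groups without overlap: from ventricular +dox to MBNL1+MBNL2, from ventricular MBNL2 to +/–dox and from atrial MBNL1 to +/–dox. The ventricular –dox group reached up to 1.24 TPM and so met the atrial +dox group, which began at 1.23 TPM.

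The tissue labels and other cell types were checked by marker genes. Myl2, the ventricular myosin light chain, ranged from 14190 to 20120 TPM in the ventricle and from 28.7 to 581 TPM in the atria, and Myl7, its atrial counterpart, from 8.33 to 231 TPM and from 9011 to 14030 TPM. As Clcn1 is chiefly known from skeletal muscle, its markers matter most here. Among 29 skeletal muscle markers, of which 22 were tested, 4 were called higher and 2 lower in –dox than in +dox in the ventricle, and 4 higher and 1 lower in the atria, where 7.60% and 5.23% of all genes were called. Their summed level ran from 293 to 575 TPM in +dox and from 624 to 1206 TPM in –dox ventricles, and from 629 to 872 and from 878 to 1100 TPM in the atria, and the largest part was Acta1 in the ventricle and Myl1 in the atria. In +/–dox the sums overlapped +dox in both tissues, with 435 to 510 TPM in the ventricle and 828 to 944 TPM in the atria. The fast myosin genes were at or near 0, with at most 0.02 TPM of Myh4 and 0.07 TPM of Myh1 in any library, Pax7 of satellite cells was at 0 throughout, and Actn3 of fast fibres reached 0.07 TPM in the ventricle and 0.94 TPM in the atria. Among the markers called higher were Mybpc2, a fast myosin-binding protein (log2 fold change 2.78 and 2.75 in –dox ventricle and atria), and the pump gene Atp2a1 (0.94 and 0.86). Ventricular Myl1 (1.03) and Scn4a (0.85) were also higher calls. The markers called lower in –dox were Myh8 (ventricular log2 fold change -2.38, atrial -1.9) and ventricular Ryr1 (-1.64), so the list did not move in a single direction. In the atria the fast troponin genes Tnnt3 (0.19 to 3.07 TPM over all atrial libraries, log2 fold change 3.39, adjusted p = 0.000137 in edgeR) and Tnni2 (0.5 to 2.86 TPM, 2.02, adjusted p = 0.0141) were called higher in –dox as well.

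Of the other cell type lists, no red blood cell, fibroblast, macrophage or adipocyte marker was called between –dox and +dox in either tissue, while 1 of 5 endothelial markers was called higher in the ventricle and 1 of 6 Schwann cell and neuron markers in the atria. Some of their summed levels moved with the cohorts all the same. In the ventricle the red blood cell markers ran from 393 to 1243 TPM in +dox, from 2354 to 2933 TPM in +/–dox and from 1842 to 4147 TPM in –dox. The endothelial markers ran there from 158 to 170, from 203 to 220 and from 196 to 252 TPM. Ventricular fibroblast (582 to 639 and 516 to 636 TPM), macrophage and adipocyte sums overlapped between +dox and –dox. In the atria the red blood cell sums overlapped (618 to 1321 and 694 to 2896 TPM), while the endothelial sums did not (220 to 248 and 283 to 339 TPM). Nor did the atrial fibroblast sums (991 to 1217 and 1329 to 1399 TPM) or Schwann cell and neuron sums (11.4 to 13.8 and 20.3 to 24.8 TPM). Atrial macrophage and adipocyte sums overlapped between +dox and –dox. Atrial marker sums of the atria lay at 40360 to 43430 TPM in +dox, 55920 to 60820 in +/–dox and 54480 to 57870 in –dox. Ventricular cardiomyocyte sums lay at 23200 to 24800 TPM in +dox, 27910 to 29230 in +/–dox and 24140 to 26150 in –dox. Ventricular marker sums of the ventricle overlapped between these cohorts. Of these lists, Fhl2 was called lower in –dox atria (-0.97) and Tnnt2 higher in +/–dox ventricles (0.64). The part of these markers in the Clcn1 difference was not tested.

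At its 3′ end Clcn1 overlaps Fam131b, on the opposite strand, by 445 bases. Fam131b had a mean of 0.197 TPM in +dox and 0.24 TPM in –dox ventricles, with a log2 fold change of 0.33 ± 0.29 (adjusted p = 0.458 in edgeR), and 0.477 and 0.87 TPM in the atria, with 0.92 ± 0.27 (adjusted p = 0.019). The library kit keeps strand, but the strand setting of the counting is not given in the sources used here, so a share of reads from the overlap cannot be assigned with certainty. Casp2, the nearest protein-coding gene before Clcn1 at 4177 bases, had log2 fold changes of 0.06 ± 0.10 and 0.13 ± 0.10 in –dox ventricle and atria, and Zyx, the nearest after it, 0.28 ± 0.14 and 0.29 ± 0.14, none of which passed the edgeR test.

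Clcn2, a widely expressed plasma membrane channel that opens on hyperpolarization, was the other surface channel of the family and ranged from 0.75 to 1.78 TPM in the ventricle and from 1.28 to 2.42 TPM in the atria. In the ventricle it held 0.75, 1.01 and 1.01 TPM in +dox and 1.47, 1.51 and 1.56 TPM in +/–dox, without overlap. This rise, a log2 fold change of 0.72 ± 0.21 (adjusted p = 0.0111 in edgeR), was the only call among Clcn2 to Clcn7 against +dox. It was no longer called without replicate 1 of the +dox ventricle, the lowest library (0.59, adjusted p = 0.0782). The –dox ventricle held 1.2, 0.94 and 1.2 TPM, which overlapped +dox (0.30 ± 0.21, adjusted p = 0.334). In the atria Clcn2 held 1.28, 1.56 and 1.51 TPM in +dox, 1.67, 1.8 and 2.07 TPM in +/–dox and 1.88, 1.85 and 2.42 TPM in –dox, and the fitted differences of 0.41 ± 0.20 and 0.53 ± 0.20 did not pass the edgeR test (adjusted p = 0.204 and 0.0731).

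Because TPM is scaled by transcript length, the surface channels can be set beside each other. In the +dox ventricle Clcn1 made up 7.31% ± 2.95 (SD, n = 3) of the summed TPM of Clcn1 and Clcn2, in +/–dox 33.5% ± 3.00 and in –dox 46.3% ± 4.69. In the atria it made up 47.3% ± 4.80 in +dox, 78.8% ± 0.964 in +/–dox and 78.6% ± 1.40 in –dox. The injected cohorts averaged 13.4% to 18.8% in the ventricle and 53.7% to 55.9% in the atria. These shares rest on the level of Clcn1 that led to its selection and are a description.

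The exchangers were the more abundant members. Clcn4, an endosomal exchanger, ranged from 28.1 to 34.2 TPM in the ventricle and from 42.2 to 67.4 TPM in the atria. Clcn3, its endosomal partner in mixed dimers, ranged from 15.5 to 23.2 and from 20.7 to 30.6 TPM, and Clcn7, the lysosomal member, from 11.4 to 15.9 and from 15.9 to 23.4 TPM. Clcn6, a late endosomal member known from neurons, stood at 3.95 to 6.55 and 5.44 to 8.02 TPM, and Clcn5, known from endocytosis in the kidney tubule, at 0.49 to 1.06 and 2.13 to 2.84 TPM.

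**Figure D2:**
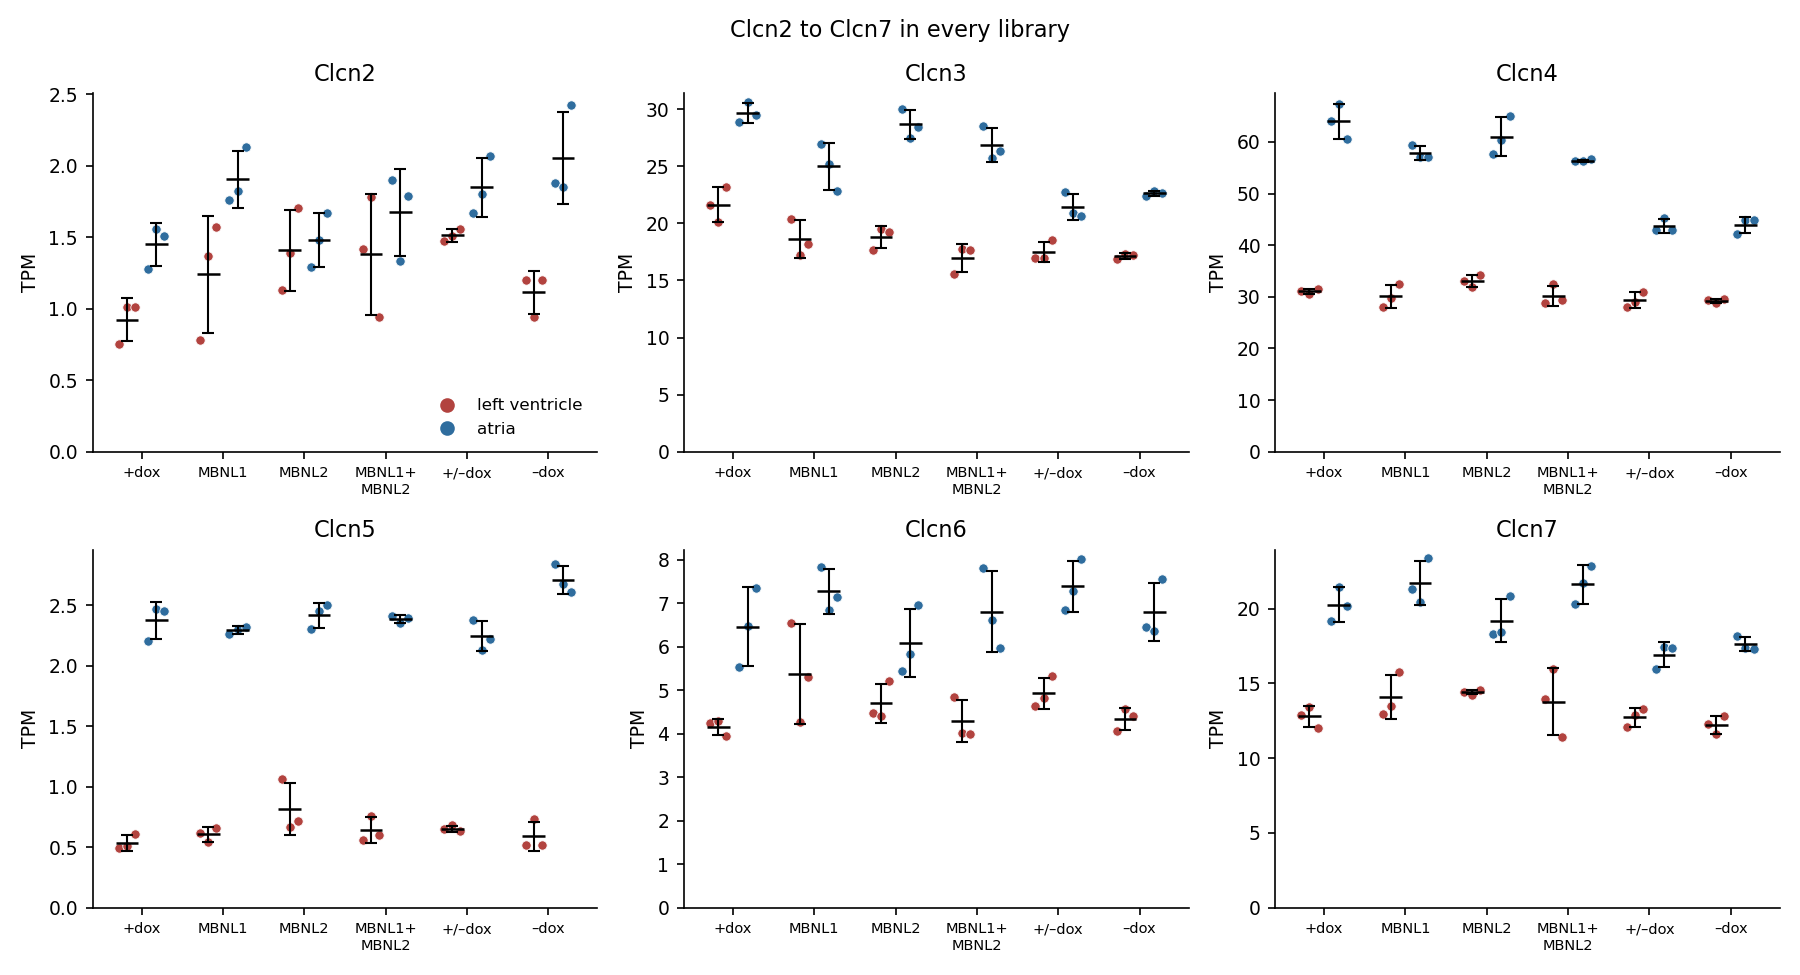
RNA levels of Clcn2 to Clcn7 in TPM for each library, by cohort, with the mean (horizontal line) and SD (error bar) of 3 libraries; the left ventricle is red and the atria blue. Atrial Clcn4 falls from a mean of 64.0 TPM in +dox to 43.7 in +/–dox and 44.0 in –dox, whereas its ventricular means stay between 29.3 and 33.1 TPM.

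Against +dox, 1 of 60 tests of Clcn2 to Clcn7 was called and 11 had an adjusted p below 0.05, 2 of them higher and 9 lower. In the ventricle 1 of 6 members was called in +/–dox and 0 of 6 in –dox, MBNL1, MBNL2 and MBNL1+MBNL2, where 6.60%, 7.60%, 2.66%, 1.52% and 2.65% of all genes were called. By adjusted p alone, 2, 1, 1, 2 and 1 of 6 members passed in these comparisons, against 21.8%, 20.9%, 8.95%, 7.43% and 8.34% of all genes. In the atria 0 of 6 were called in +/–dox, –dox, MBNL1, MBNL2 and MBNL1+MBNL2, where 3.99%, 5.23%, 0.130%, 0.00520% and 0.260% of all genes were called. By adjusted p alone, 2 of 6 passed in +/–dox and in –dox, where 12.6% and 15.9% of all genes did, and 0 of 6 in the injected cohorts, where 0.348%, 0.0104% and 0.686% did. At an unadjusted p below 0.05 there were 4, 1, 2, 3 and 2 of 6 in the ventricle and 4, 4, 2, 0 and 2 of 6 in the atria. All of these comparisons share the +dox libraries of their tissue.

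Clcn3 was the member that moved in most comparisons, always downward and by less than 1.5-fold. In the ventricle it held 21.56, 20.13 and 23.21 TPM in +dox, 17, 16.93 and 18.52 TPM in +/–dox and 16.88, 17.34 and 17.19 TPM in –dox, so that neither cohort overlapped +dox. The edgeR log2 fold change was -0.34 ± 0.09 in +/–dox (adjusted p = 0.00651), -0.32 ± 0.09 in –dox (0.01), -0.29 ± 0.09 in MBNL1 (0.0434), -0.39 ± 0.09 in MBNL2 (0.00963) and -0.43 ± 0.09 in MBNL1+MBNL2 (0.00276). The MBNL1 value missed the threshold under 4 of 9 other settings and in 5 of 6 fits that left out a library. The –dox value missed it without –dox replicate 3 (adjusted p = 0.0661) and the MBNL2 value without MBNL2 replicate 1 (0.0678) and in limma on log2(TPM + 1) (-0.19, adjusted p = 0.0787). In the atria Clcn3 held 28.88, 30.61 and 29.51 TPM in +dox, 22.72, 20.86 and 20.67 TPM in +/–dox and 22.37, 22.79 and 22.68 TPM in –dox. It fell in +/–dox (-0.41 ± 0.09, adjusted p = 0.00216) and in –dox (-0.35 ± 0.09, adjusted p = 0.00701), while in the injected cohorts its values were -0.27, -0.005 and -0.21 and did not pass the edgeR test.

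Clcn4 fell in the atria and not detectably in the ventricle. Its atrial libraries held 64.04, 67.38 and 60.63 TPM in +dox, 42.91, 45.26 and 42.88 TPM in +/–dox and 42.22, 44.8 and 44.85 TPM in –dox. Without overlap, the +dox libraries were the higher ones, and edgeR gave a log2 fold change of -0.48 ± 0.06 for +/–dox (adjusted p = 3.33e-06) and -0.52 ± 0.06 for –dox (adjusted p = 7.98e-07), both under 1.5-fold. In the ventricle it held 31.14, 30.57 and 31.53 TPM in +dox and 29.3, 28.83 and 29.65 TPM in –dox, and the fitted values of -0.06 ± 0.06 in –dox and -0.10 ± 0.06 in +/–dox did not pass. The difference of the change between the chambers was 0.46 ± 0.09 for –dox (adjusted p = 0.00576) and 0.38 ± 0.09 for +/–dox (adjusted p = 0.0378) in edgeR's interaction test, where 1.03% and 0.692% of all genes passed. The +/–dox value missed the threshold without the filter on low counts (adjusted p = 0.0885) and in 9 of 12 fits that left out a library, whereas the –dox value passed in all 12. With cohort and number as a block, pairing the chambers, the interaction was 0.45 ± 0.07 for –dox (adjusted p = 0.00162 in edgeR) and 0.38 ± 0.07 for +/–dox (adjusted p = 0.00825).

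In the injected cohorts atrial Clcn4 stood between by mean: the 9 libraries held 56.2 to 65.1 TPM, all above the +/–dox and –dox libraries, and all but 1, of the MBNL2 cohort, below the +dox libraries. In normalized CPM, MBNL1 (up to 149.1) and MBNL2 (153.6 to 158.5) overlapped the +dox cohort (142.4 to 171.3). Against +dox, Clcn4 passed the edgeR test in no injected cohort, with log2 fold changes of -0.17 for MBNL1, -0.05 for MBNL2 and -0.24 for MBNL1+MBNL2. Compared with +/–dox it was higher in MBNL1 (0.31 ± 0.06, adjusted p = 0.00276), MBNL2 (0.43 ± 0.06, adjusted p = 2.64e-05) and MBNL1+MBNL2 (0.25 ± 0.06, adjusted p = 0.0156) in edgeR, the last of which missed the threshold in 3 of 6 fits that left out a library. By adjusted p alone, 2 of 6 members were higher than in +/–dox in MBNL1 (Clcn4 and Clcn7), 2 higher and 1 lower in MBNL2 (Clcn3, Clcn4 and, lower, Clcn6) and 1 higher in MBNL1+MBNL2 (Clcn4), where 4.60%, 11.0% and 6.86% of all genes passed. Atrial Clcn3 was higher in MBNL2 than in +/–dox (0.41 ± 0.09, adjusted p = 0.00298). The values of Clcn7 in MBNL1 (0.28 ± 0.08, adjusted p = 0.0302) and of Clcn6 in MBNL2 (-0.36 ± 0.11, adjusted p = 0.0349) missed the threshold in 5 and 4 of 6 fits that left out a library.

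**Figure D3:**
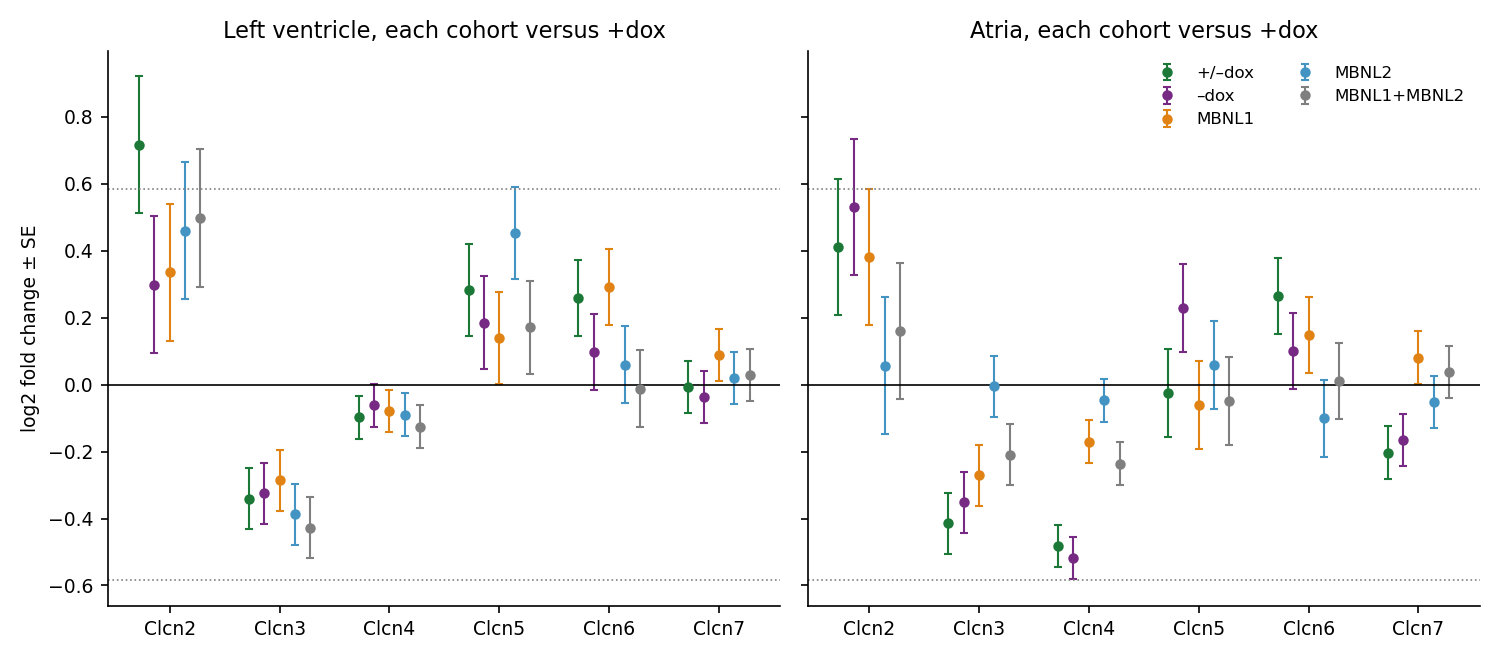
Log2 fold changes of Clcn2 to Clcn7 against +dox in the left ventricle and the atria, with SE from the edgeR fit; colours mark the cohort and dotted lines a change of 1.5-fold. Clcn3 lies below 0 in all 5 ventricular comparisons, and atrial Clcn4 lies at -0.48 and -0.52 in +/–dox and –dox and closer to 0 in the injected cohorts.

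Clcn5, Clcn6 and Clcn7 varied little with dox. The ventricular Clcn5 level was higher in MBNL2 than in +dox (0.45 ± 0.14, adjusted p = 0.0394 in edgeR), with 1.06, 0.67 and 0.72 TPM against 0.49, 0.51 and 0.61 TPM. Without replicate 1 of the MBNL2 ventricle, the highest of them, this value was 0.23 (adjusted p = 0.383), and it missed the threshold in 4 of 6 such fits. None of the comparisons of Clcn6 or Clcn7 with +dox passed. The end of Clcn6 lies 2180 bases from Nppa, the atrial natriuretic peptide gene, on the opposite strand. Atrial Nppa averaged 19000 TPM in +dox and 32600 TPM in –dox, with a log2 fold change of 0.81 ± 0.50 that did not pass (adjusted p = 0.301 in edgeR), where Clcn6 had 0.10 ± 0.11.

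Besides Clcn1, Clcn5 was the member that separated the chambers. Its ventricular level was lower than the atrial level in all 6 cohorts, by log2 fold changes between -1.21 and -1.64 with adjusted p of 9.56e-09 or less in edgeR, and no ventricular library reached an atrial one. Of Clcn2 to Clcn7, 1 of 6 was called in each cohort, where 25.0% of all genes were called in +dox, 24.9% in –dox and the shares given above in the others. Clcn4 was lower in the ventricle than in the atria in +dox (-0.48 ± 0.06, adjusted p = 2.06e-07 in edgeR) but not detectably so in +/–dox (-0.10 ± 0.06, adjusted p = 0.248) or –dox (-0.03 ± 0.06, adjusted p = 0.797). In the injected cohorts it was lower by log2 fold changes of -0.39, -0.52 and -0.37, with adjusted p of 1.57e-05 or less.

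The scale matters for differences between chambers. Over all genes tested, the median ratio of ventricular to atrial level was between -0.50 and -0.33 (log2) in TPM and between -0.06 and 0.00 after TMM normalization of counts, a shift that touches every chamber comparison in the same direction. In TPM the atria were higher for every member, by 6.40- to 18.5-fold for Clcn1, 2.96- to 4.59-fold for Clcn5 and 1.05- to 2.06-fold for the others, and limma on log2(TPM + 1) called 14 of 36 differences of Clcn2 to Clcn7 between chambers instead of 6. For Clcn2, Clcn3, Clcn6 and Clcn7 the chamber direction thus depends on the scale in part of the cohorts, and for Clcn1, Clcn4 and Clcn5 it does not. The interaction of Clcn4 was as large on the TPM scale (0.45 and 0.46 in limma for –dox and +/–dox).

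**Figure D4:**
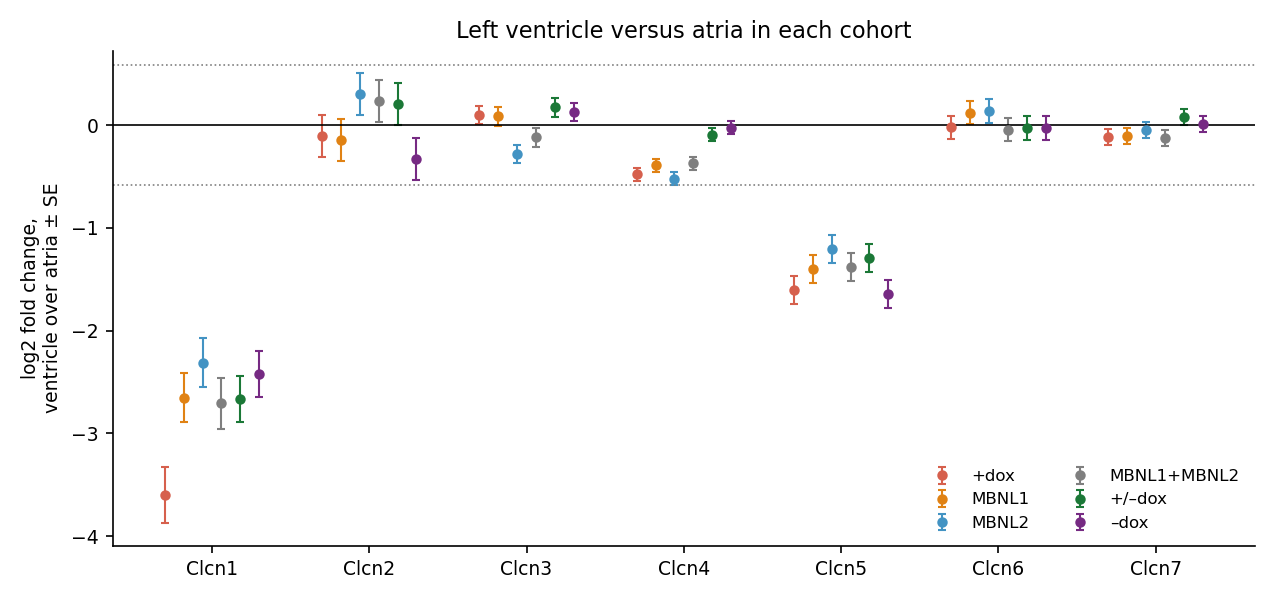
Log2 fold change between left ventricle and atria for each member in each cohort, with SE from the edgeR fit; values below 0 are lower in the ventricle and dotted lines mark 1.5-fold. Clcn1 lies between -2.31 and -3.60, Clcn5 between -1.21 and -1.64, and Clcn4 moves from -0.48 in +dox to -0.03 in –dox.

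Other genes linked to chloride transport, by gene family or as subunits, were read from lists of 61 symbols, of which 50 were tested. The lists gave 4 of the kidney ClC channels and ClC subunits, 26 genes listed as other chloride channels and 20 listed as chloride transporters. A place on a list does not show that the product carries chloride. In the ventricle 5 were called higher and 1 lower in +/–dox and 4 higher and 0 lower in –dox, with medians over the 50 genes of 0.18 and 0.12 (log2) against 0.00 and 0.01 for all genes, of which 6.60% and 7.60% were called. In the atria 1 was higher and 1 lower in +/–dox, and 2 were higher and 2 lower in –dox, with medians of -0.05 and 0.13 against 0.03 and 0.03 for all genes, of which 3.99% and 5.23% were called. In the injected cohorts 1, 0 and 1 were called in the ventricle, both times Slc26a11, and 0 in the atria in edgeR, where 1, 0 and 0 had an adjusted p below 0.05.

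Slc4a3, the cardiac chloride-bicarbonate exchanger AE3, was the most abundant of the called genes. It rose from 24.9 ± 1.32 TPM (SD, n = 3) in +dox to 44.3 ± 4.05 in –dox ventricles (log2 fold change 0.86 ± 0.10, adjusted p = 1.09e-07 in edgeR) and from 26.3 ± 1.45 to 55.1 ± 2.74 TPM in the atria (1.10 ± 0.10, adjusted p = 1.18e-09). Ano5, an anoctamin known from limb-girdle muscular dystrophy, rose from 0.0333 ± 0.0322 to 1.10 ± 0.259 TPM in the ventricle (4.84 ± 0.63, adjusted p = 1.58e-06) and from 0.0333 ± 0.00577 to 0.157 ± 0.0808 TPM in the atria (2.73 ± 0.65, adjusted p = 0.00324). In +/–dox, Ano5 reached 0.27 ± 0.0520 TPM in the ventricle (2.89 ± 0.61, adjusted p = 0.00086) and 0.0333 ± 0.0208 TPM in the atria.

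The other called ventricular genes were Slc26a10 (9.0 ± 0.33 TPM in +dox and 17.5 ± 3.70 in –dox, 0.99 ± 0.16 on the log2 scale) and the sulfate and anion transporter Slc26a11 (0.573 ± 0.163 and 0.893 ± 0.215 TPM, 0.66 ± 0.20). In +/–dox, Slc12a9 was called higher (0.63 ± 0.15) and Ano3 lower (-0.98 ± 0.36). In the atria the potassium-chloride cotransporter Slc12a5 fell from 1.43 ± 0.308 TPM in +dox to 0.767 ± 0.0723 in –dox (-1.03 ± 0.29), and Slc12a8 from 4.59 ± 0.410 to 2.60 ± 0.467 TPM (-0.71 ± 0.25). When single libraries were left out, the call of Ano3 was kept in 2 of 6 fits and that of Slc26a11 in 3 of 6, both in –dox and in +/–dox. The call of Slc12a5 was kept in 4 of 6 fits in –dox and in 2 of 6 in +/–dox, and that of Slc12a8 in –dox in 1 of 6. The call of Slc12a9 was lost without ventricular +dox replicate 3.

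Finally, the 13260 tested genes with a mean of at least 1 CPM were compared with Clcn1 by the Pearson correlation of 12 group means of log2 CPM, each centred within its tissue, as a description over means that share the same libraries. The most similar were Mroh1 (r = 0.975), the stress-activated kinase gene Mapk12 (0.975), Stard9 (0.974), Rbm33 (0.974) and Nrap (0.974), a muscle protein that anchors actin at the cell junction. The next gene also had 0.974. Over the 36 single libraries r was 0.902, 0.902, 0.747, 0.882 and 0.784 for these 5 genes in the same order. The most opposite were 4931406C07Rik (-0.986), Gpx1 (-0.983), which codes for glutathione peroxidase, and Map3k20 (-0.983). In all, 382 genes exceeded 0.9. The log2 fold change of –dox against +dox was 0.98 and 0.56 for Mroh1 and 0.76 and 0.35 for Mapk12 in ventricle and atria, beside 3.73 and 2.55 for Clcn1. Within the family r was 0.74 for Clcn2, 0.62 for Clcn6 and 0.44 for Clcn5, and -0.71, -0.66 and -0.58 for Clcn3, Clcn4 and Clcn7.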

How the data were processed

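RNA of the left ventricle and atria of 6 cohorts, 3 libraries each, was sequenced by the authors after stranded mRNA library preparation from 250 ng as paired 150-cycle reads. Per the labels and methods the authors aligned reads to mm10 with STAR 2.7.10b and deposited RSEM 1.3.1 expected counts per gene (GENCODE M25) and TPM values; both tables were keyed by symbol. The deposited expected counts were rounded, normalized by TMM and tested with edgeR 4.0.16 (R 4.3.3; quasi-likelihood, robust, filterByExpr with a minimum count of 10) in 1 fit of all 36 libraries and 12 group means. Called genes had a Benjamini-Hochberg adjusted p below 0.05 over 19231 genes and at least a 1.5-fold change; intervals are normal 95% intervals from the SE. TPM was used for levels. DESeq2 1.42.0, limma 3.58.1 and the other alternatives are counted in the closing section, which prints no DESeq2 value.

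Members and gene lists were chosen with earlier results of these data known. Named were all members, called genes of the chloride lists (10 of the largest change per tissue), the 5 genes most and 3 least like Clcn1, markers by list, and neighbouring genes. The fit was tested on simulated data. None of the 36 replicate pairs held identical counts. Promoters came from RefSeq (GRCm38.p6) and positions from GENCODE M21, the same assembly. The study's sample list gives the same animals for both chambers, but the labels do not tie replicate numbers to animals. The deviations of same-numbered libraries from their group means correlated at -0.15 to 0.29, with every pair above 0.1 in 0 of 22 comparisons between cohorts and in 3 of 6 between chambers. Per the labels the libraries of a group are biological replicates, and the counts behind ventricular Clcn1 (11 to 186 per library) limit its precision. Sex was read from Xist and Ddx3y. Fits with sex as a term, and the block of cohort and number for interactions, were added after the data were examined.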

Additional observations from a re-analysis of the deposited data

Results flagged for a closer look

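Clcn4 changed differently in the 2 tissues. The fall of Clcn4 without dox was seen in the atria and not in the left ventricle, and the test of that difference gave a log2 value of 0.46 ± 0.09 (SE) for –dox against +dox (adjusted p = 0.00576 in edgeR) and 0.38 ± 0.09 for +/–dox against +dox (adjusted p = 0.0378). No other member passed this test in 8 comparisons without a block, among which Clcn1 was tested only against +/–dox.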

How the results depend on the processing

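Clcn1 was called lower in each injected cohort than in +/–dox, and lower in ventricle than atria, in 157 of 160 alternative fits of these 10 comparisons. These fits draw on the same 36 libraries, and a level lower than in +/–dox was likely from the choice of Clcn1. The fits without the call were limma on log2(TPM + 1) in the ventricle, with -0.474 for MBNL1, -0.463 for MBNL2 and -0.549 for MBNL1+MBNL2, all under the fold minimum, and for MBNL1 with an adjusted p of 0.0521. Between injected cohorts none of 96 fits passed the threshold. The sign of ventricular MBNL1 against MBNL2 turned in limma on TPM (-0.012) and ran from -0.094 to 0.423 when single libraries were left out. That of atrial MBNL1+MBNL2 against MBNL2 turned with the library set as a term (-0.108) and ran from -0.169 to 0.365.

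Calls of Clcn2 to Clcn7 against +dox numbered 1, 0 in limma on TPM, 11 without a fold minimum and 0 to 2 when single libraries were left out (0 without ventricular +dox replicate 1, 2 without atrial +dox replicate 3 or ventricular MBNL1+MBNL2 replicate 3). Between chambers they numbered 6, 14 in limma on TPM and 11 without a fold minimum. Calls of the chloride lists against +dox numbered 18, 10 in limma on TPM and 75 without a fold minimum.

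Differences of Clcn1 from +dox in log2(TPM + 1) were 0.722 (+/–dox) and 0.874 (–dox) in the ventricle and 1.77 and 1.886 in the atria. With log2(TPM + 0.1) they were 2.346, 2.637, 2.312 and 2.443, and with TMM-normalized CPM 3.38, 3.731, 2.445 and 2.552. Within the second library set alone, which has 1 library in each of these groups, they were 1.079 for ventricular –dox, 1.971 for atrial +/–dox and 2.03 for atrial –dox. For the single results on Clcn2 to Clcn7, the chloride genes and the Clcn1 levels of injected cohorts against +dox, 680 of 776 alternatives kept the result, 84 fell below the threshold, 12 moved (all Clcn1 levels) and 0 turned.

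The planned fit with the replicate block changed no call: Clcn1 in MBNL1+MBNL2 against +/–dox took values of -1.97 (ventricle) and -1.924 (atria). Chambers share animals, and with cohort and number as the block Clcn1 between chambers was -2.673 (+/–dox), -2.635 (MBNL1), -2.312 (MBNL2) and -2.719 (MBNL1+MBNL2). In the added block fit of the interactions, 1 further value passed, Clcn4 in MBNL2 against +/–dox (-0.431, adjusted p = 0.0101, against -0.43 and 0.0546 without the block). Sex as a term changed no call of these single results or of Clcn1.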
